A study of Mus musculus with 12 samples.

Results

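The 9 Wnt ligand genes Wnt2b, Wnt3a, Wnt4, Wnt5a, Wnt5b, Wnt7a, Wnt7b, Wnt8b and Wnt9a were followed by name through 25 cell clusters of the mouse cortex at embryonic day 14, in nuclei of 11 embryos. They are 9 of the 17 Wnt ligand genes and of the 23513 genes in the tables, and all 9 were found. Pregnant C57BL/6J dams received saline or EtOH by intraperitoneal injection, with 2 dams per treatment (S1 and S2 for saline, E1 and E2 for EtOH). The methods give 2.5 g/kg EtOH in a 25% v/v solution and 6 daily injections, which in whole embryonic days ran from day 8 to day 13. EtOH embryos are called E1-1, E1-2 and E2-1 to E2-4 (6 in all), and saline embryos S1-1, S1-2, S2-1, S2-2 and S2-4 (5 in all), with a further embryo of dam S2 not analysed here. The methods state that 1 saline sample was taken out because its nuclei were spread differently over the clusters. Libraries of dams S1 and E1 were prepared in batch 1, and those of dams S2 and E2 in batch 2. Within a treatment each batch therefore holds the embryos of 1 dam, and batch and dam cannot be told apart. No embryo carried a transgene or a targeted allele by the labels, and the tissue of each library was the cortex of 1 embryo. Embryos of 1 dam are littermates that shared the exposure of that dam, so p-values over embryos do not account for the dam.

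Single nucleus RNA sequencing counts RNA molecules of each nucleus by their unique molecular identifiers (UMIs). The tables held 30349 nuclei from saline and 20201 from EtOH embryos, with between 14078316 and 83061737 UMIs per embryo. The EtOH libraries were shallower, with a median of 4071.5 to 6911 UMIs per nucleus against 6325 to 9051 in saline. A level is given as counts per 1000000 (CPM), the UMIs of a gene in 1 embryo and 1 cluster relative to all UMIs of the same nuclei, for embryos with at least 10 nuclei in that cluster. Of the cell barcodes, 314 occurred in more than 1 library (0.625% of the distinct ones). These UMIs come from the 3′ end of transcripts and levels are not corrected for transcript length, so each gene was compared with itself across clusters and embryos and not with the other genes. The clusters and their names are the authors': radial glial cells (RGC), intermediate progenitors (IPC), projection neurons (PN), interneurons (Int) and 3 others. The interneuron precursors of Cluster 3 stand among the RGC clusters. The clusters were built from the expression of all genes, and the authors named Cluster 21 as cortical hem RGCs with the help of Wnt8b, so differences between clusters are descriptions and were given no test.

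Wnt ligands are secreted, lipid-modified glycoproteins. They bind Frizzled receptors with a co-receptor on the same or neighbouring cells, and either stabilize beta-catenin (the canonical pathway) or act on the cytoskeleton and calcium (the non-canonical pathways). Wnt3a and Wnt8b are classed as canonical ligands and Wnt5a is the best known non-canonical one. In the embryonic telencephalon the cortical hem, a strip of neuroepithelium between the medial cortex and the choroid plexus, is a signalling centre that secretes Wnts and is required for the hippocampus.

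Of the 9 genes, 4 shared their highest level in Cluster 21, the cortical hem RGCs, and their promoters are shown for that reason. RefSeq start sites on GRCm38.p6 were matched for 7 of the 9 genes, the exceptions being Wnt5a and Wnt7b. Each line gives the 250 bases before the RefSeq start, 5′ to 3′ on the gene's strand. Most of the Wnt2b window lies inside that gene as GENCODE places it, since RefSeq and GENCODE differ in its start. Capitals mark the CCAAT box (CCAAT or ATTGG), the homeodomain core TAATTA and the GC box (GGGCGG or CCGCCC), searched on both strands, and neighbouring GC boxes can overlap. The windows lie at chr19:44493222-44493471 (plus strand, Wnt8b), chr11:59290752-59291001 (minus strand, Wnt3a), chr11:59306680-59306929 (plus strand, Wnt9a) and chr3:104961710-104961959 (minus strand, Wnt2b).
Wnt8b: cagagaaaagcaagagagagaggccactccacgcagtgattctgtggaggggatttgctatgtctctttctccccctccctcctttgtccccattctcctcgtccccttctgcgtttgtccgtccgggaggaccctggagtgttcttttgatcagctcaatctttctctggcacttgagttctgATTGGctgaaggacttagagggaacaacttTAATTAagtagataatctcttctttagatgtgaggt
Wnt3a: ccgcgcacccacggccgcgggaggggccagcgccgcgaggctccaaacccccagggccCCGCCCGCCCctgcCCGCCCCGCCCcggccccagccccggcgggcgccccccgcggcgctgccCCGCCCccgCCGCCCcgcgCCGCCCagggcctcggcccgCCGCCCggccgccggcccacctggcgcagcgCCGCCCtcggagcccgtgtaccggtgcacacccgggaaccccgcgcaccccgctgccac
Wnt9a: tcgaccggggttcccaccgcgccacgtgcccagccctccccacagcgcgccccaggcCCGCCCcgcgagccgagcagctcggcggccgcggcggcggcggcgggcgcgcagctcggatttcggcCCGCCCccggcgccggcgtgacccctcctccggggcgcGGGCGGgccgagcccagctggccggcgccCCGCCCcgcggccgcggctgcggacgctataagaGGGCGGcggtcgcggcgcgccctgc
Wnt2b: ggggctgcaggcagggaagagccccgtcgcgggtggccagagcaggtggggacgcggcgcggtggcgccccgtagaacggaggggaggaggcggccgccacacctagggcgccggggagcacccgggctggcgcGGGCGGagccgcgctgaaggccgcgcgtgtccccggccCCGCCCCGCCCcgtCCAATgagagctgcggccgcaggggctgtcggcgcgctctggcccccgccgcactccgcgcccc
The Wnt8b window differed in composition from the other 3, with 48.4% G and C and 5 CpG dinucleotides. The windows of Wnt3a, Wnt9a and Wnt2b held 87.6%, 84.4% and 80.8% G and C and 41, 48 and 36 CpG dinucleotides. The median of 32817 windows was 52.4% and 6. Ligands highest outside Cluster 21 had such windows too, with 85.2% and 44 for Wnt4 and 77.6% and 34 for Wnt7a. The 3 starts of Wnt5b had 55.6%, 53.2% and 75.2% G and C. Wnt8b had 1 TAATTA, 36 bases before the start and present in 4.85% of all windows, and 1 ATTGG. Wnt2b had 1 CCAAT box, which 33.8% of all windows hold. The GC box, present in 32.7% of all windows, was found 9 times before Wnt3a, 5 times before Wnt9a and 3 times before Wnt2b. It was not found before Wnt8b. Before Wnt4 and Wnt7a it was found 8 and 6 times, and before the 3 starts of Wnt5b 2, 0 and 1 times. The TCF/LEF core CTTTGAT or ATCAAAG, through which beta-catenin acts, is in 3.21% of all windows. This core was found in none of the 4 windows shown, and among the 7 genes with a window it was found 71 bases before 1 of the 3 starts of Wnt5b. A match to these letters is a description of the window and not a binding site.

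Wnt8b lies on chromosome 19 from 44493472 to 44514273 (plus strand, GRCm38, GENCODE M21, as for all positions of genes here). It is a ligand long used as a marker of the hem and the medial wall. In Cluster 21 Wnt8b was at 308, 207, 368, 306 and 243 CPM in S1-1, S1-2, S2-1, S2-2 and S2-4, and at 346, 366, 322, 311 and 379 CPM in E1-1, E1-2, E2-2, E2-3 and E2-4. E2-1 had 3 nuclei in Cluster 21 and was left out of it throughout. The mean was 316 ± 55.3 CPM (SD, n = 10 embryos), and the saline and EtOH embryos overlapped. RGC Clusters 20 and 2 followed with 48.1 ± 36.5 CPM (SD, n = 9) and 21.3 ± 10.7 CPM (SD, n = 11). The step from Cluster 20 to Cluster 2 did not exceed the spread, though Cluster 20 was higher in 7 of 9 embryos. Spread here means the larger of the SDs over embryos of the clusters compared. It does not use that the clusters share their embryos. RGC Clusters 3 and 12, at 3.54 and 3.07 CPM, lay below Cajal-Retzius Cluster 14 at 9.38 CPM. Over the 25 clusters the median of the mean levels was 1.599 CPM. A UMI of Wnt8b was found in 69.4% of Cluster 21 nuclei and in 41.1% after each nucleus was thinned to 2000 UMIs. In Cluster 15 (Int 3), the cluster of at least 500 nuclei with the lowest thinned share, these shares were 1.63% and 0 of 1283 thinned nuclei, which allows up to 0.234% by counting error alone, at a median of 9145.5 UMIs per nucleus against 7702 in Cluster 21.

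Wnt3a, a canonical ligand without which the hippocampus does not form, lies on chromosome 11 from 59248033 to 59290752 (minus strand). Its level in Cluster 21 was 141, 103, 129, 165 and 144 CPM in the 5 saline embryos, in the order above, and 257, 183, 215, 251 and 245 CPM in the 5 EtOH embryos. All EtOH embryos lay above all saline embryos. The mean of the 10 embryos was 183 ± 55.6 CPM (SD), 23.7 times the next cluster, Int Cluster 13, at 7.73 ± 8.56 CPM (SD, n = 11). A Wnt3a UMI was found in 54.2% of Cluster 21 nuclei and in 28.1% after thinning, against 1.09% and 0 of 1283 (up to 0.234%) in Cluster 15.

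Wnt9a lies beside Wnt3a on chromosome 11, from 59306928 to 59333552 on the plus strand, so the pair is transcribed away from each other. The gap between them is 16175 bases and holds 0 other annotated genes. Wnt9a was at 74.8, 54.5, 96.0, 99.7 and 108 CPM in the saline embryos in Cluster 21 and at 140.1, 114, 113, 112 and 140.5 CPM in the EtOH embryos, again without overlap. The mean was 105 ± 26.4 CPM (SD, n = 10), and RGC Cluster 20 was next with 3.59 ± 4.49 CPM (SD, n = 9). A Wnt9a UMI was found in 46.4% of Cluster 21 nuclei, and in 21.5% after thinning. In Cluster 19, with a median of 10268.5 UMIs per nucleus, the shares were 0.453% and 0 of 662 (up to 0.453%).

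Wnt2b, on chromosome 3 from 104945272 to 104961921 (minus strand), is another ligand of the hem. It was at 49.4, 56.0, 39.2, 66.2 and 63.0 CPM in the saline embryos in Cluster 21 and at 121, 114, 62.1, 73.5 and 71.9 CPM in the EtOH embryos. The groups overlapped, since E2-2 lay below S2-2 and S2-4. The mean was 71.6 ± 26.3 CPM (SD, n = 10), against 11.4 ± 6.74 CPM (SD, n = 9) in Cluster 20. Wnt2b was also counted outside the hem, with mean levels between 3.92 and 11.4 CPM in the other 24 clusters. Gm43846, a sense intronic gene, is annotated on the same strand as Wnt2b and overlaps it. Its part in the levels of Wnt2b given here was not tested. A Wnt2b UMI was found in 32.4% of Cluster 21 nuclei and 12.7% after thinning, and in Cluster 19 in 4.83% and 0.604%.

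**Figure D1:**
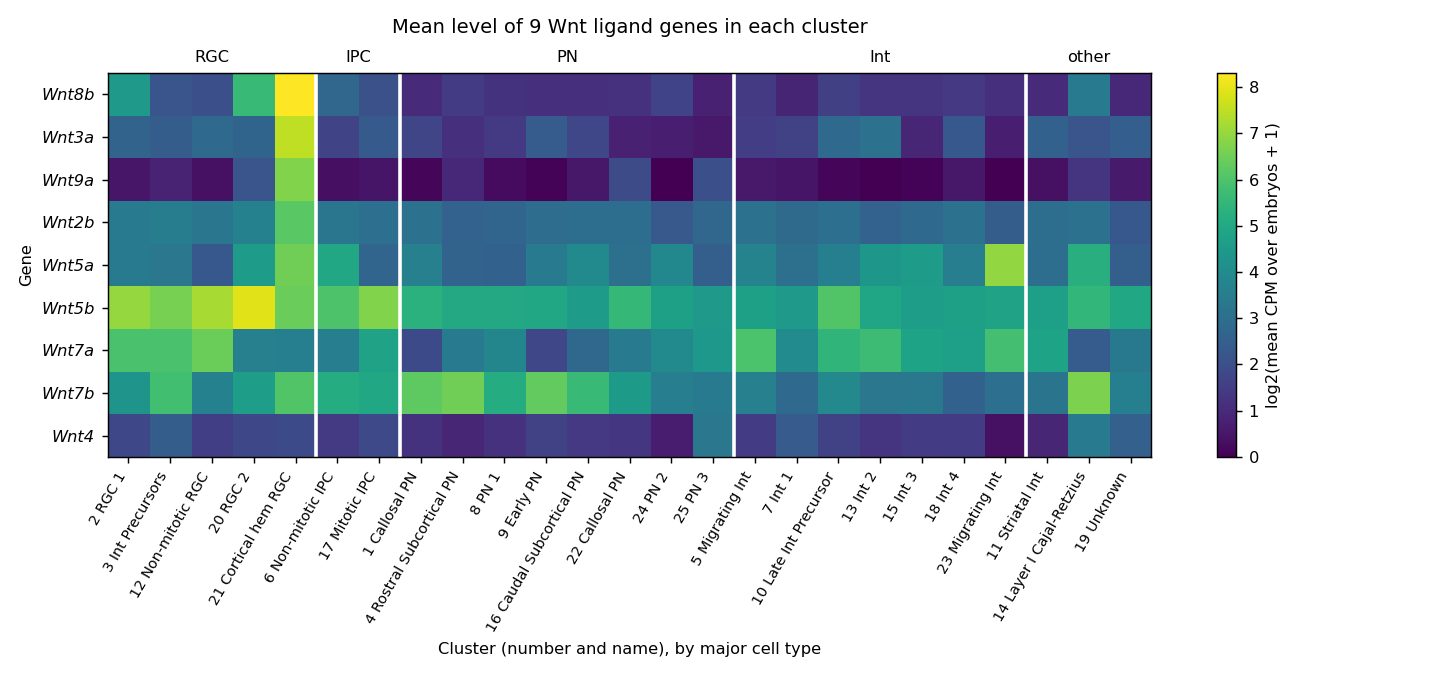
Mean level of the 9 ligand genes (rows) in the 25 clusters (columns, by major cell type), as log2(mean CPM over embryos + 1). The Cluster 21 column holds the highest level of Wnt8b, Wnt3a, Wnt9a and Wnt2b. Wnt7a is low and Wnt7b high in several PN columns, and both are high in Cluster 3.

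How much of a ligand's RNA came from the hem differed between the genes. Cluster 21 held 1.24% of the nuclei and 1.40% of all UMIs. It supplied 71.5% of the 841 UMIs of Wnt9a, 46.9% of the 3958 of Wnt8b and 46.1% of the 2173 of Wnt3a, but 12.2% of the 3276 of Wnt2b. For Wnt8b a further 33.9% came from the other RGC clusters. The libraries differed in their share of hem nuclei, from 0.0789% in E2-1 to 4.64% in S2-2, which held 206 of the 627.

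The level of each hem transcript in other clusters was expressed as a share of its level in Cluster 21. In RGC Cluster 20 Wnt2b stood at 15.97%, Wnt8b at 15.2%, Wnt9a at 3.41%, Wnt3a at 2.98% and Rspo2, an R-spondin that marks the hem, at 1.74%. In RGC Cluster 2 the values were 13.5% for Wnt2b, 6.76% for Wnt8b, 2.85% for Wnt3a, 0.400% for Wnt9a and 0.181% for Rspo2. In interneuron Cluster 15 they were 8.56% for Wnt2b, 0.472% for Wnt3a, 0.453% for Wnt8b, 0.334% for Rspo2 and 0.0628% for Wnt9a. Wnt2b had the highest share of the 5 transcripts in all 3 clusters. The part of RNA set free from hem nuclei in these levels was not tested.

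Cluster 21 held markers of a neighbouring tissue as well. All 7 hem markers of the list used (Rspo1, Rspo2, Rspo3, Lmx1a, Msx1, Bmp4 and Gdf7) and all 6 choroid plexus markers (Ttr, Htr2c, Otx2, Folr1, Kcne2 and Foxj1) were highest there. Ttr, the transthyretin gene that marks choroid plexus epithelium, was at 734 ± 373 CPM (SD, n = 10), and Htr2c, a serotonin receptor of that epithelium, at 2127 ± 1830 CPM. The ligands were found less often in nuclei that held Htr2c. After thinning, Wnt8b was found in 14.0% of the 171 nuclei with an Htr2c UMI and in 51.4% of the 449 without, and Wnt3a in 6.43% and 36.3%. The shares were 7.60% and 26.7% for Wnt9a, 2.92% and 16.5% for Wnt2b, and 6.43% and 20.7% for Wnt5a. Nuclei with Top2a, a marker of dividing cells, showed a smaller contrast, with Wnt8b in 45.2% of 124 such nuclei and in 40.1% of the 496 others. The nuclei come from 10 embryos in unequal numbers, and these shares are descriptions.

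Cluster 21 was also split by whether a nucleus held an Htr2c or a Ttr UMI after thinning, with levels taken from the full counts. In the nuclei with neither, the levels of the hem ligands were higher. Wnt8b was at 430 ± 46.2 CPM (SD, n = 10 embryos), Wnt3a at 245 ± 66.6 CPM, Wnt9a at 130 ± 31.6 CPM and Wnt2b at 99.8 ± 32.5 CPM. In the nuclei with Htr2c or Ttr, measured in the 7 embryos with at least 10 such nuclei, Wnt8b was at 118 ± 29.3 CPM and Wnt3a at 69.1 ± 43.7 CPM. These 2 sets of nuclei were defined after the values of the markers had been seen.

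Single nuclei of Cluster 21 held several ligands at once. Of the 620 thinned nuclei of Cluster 21, 42.7% had UMIs of 2 or more of the 9 genes, against 6.16% in Cluster 2, 5.68% in Cluster 20 and 4.35% in Cluster 14. At full depth the share was 74.96% in Cluster 21 and 35.3% in Cluster 2. All of Wnt2b, Wnt3a, Wnt8b and Wnt9a were held by 114 nuclei of Cluster 21, of which thinning left 11. After thinning, Wnt9a was found in 31.4% of the nuclei with Wnt8b and in 14.5% of those without, and Wnt3a in 48.1% of the nuclei with Wnt2b and 25.1% of those without. Wnt5b was found in 20.8% of nuclei with and 12.1% without Wnt8b, in 25.3% with and 14.2% without Wnt2b, and in 16.7% with and 15.2% without Wnt3a. Cluster 21 nuclei with Htr2c held each of these ligands less often than those without. The part of this mixture in the shares of nuclei with several ligands was not tested.

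Wnt5a, on chromosome 14 from 28504750 to 28527448 (plus strand), had its highest level outside the hem, in the migrating interneurons of Cluster 23. It overlaps the antisense gene Gm2670, and as the strand counted is not stated, reads of an overlapping pair may not be told apart. In Cluster 23 Wnt5a was at 72.9, 122, 67.8, 109 and 91.9 CPM in the saline embryos and at 204, 197, 116, 130.2 and 115 CPM in E1-2, E2-1, E2-2, E2-3 and E2-4, with E1-1 left out for its 6 nuclei. The mean was 123 ± 45.9 CPM (SD, n = 10). Cluster 21 followed with 90.6 ± 22.1 CPM (SD, n = 10), a difference smaller than the spread between embryos, and Cluster 23 was the higher of the pair in 7 of 9 embryos. In the Cluster 21 nuclei with neither Htr2c nor Ttr after thinning, Wnt5a was at 124 ± 25.97 CPM (SD, n = 10). Cajal-Retzius cells of Cluster 14 had 36.1 ± 13.5 CPM (SD, n = 11) and non-mitotic IPCs of Cluster 6 had 30.9 ± 13.6 CPM. The other interneuron cluster named as migrating, Cluster 5, had 12.2 ± 2.87 CPM (SD, n = 11). A Wnt5a UMI was found in 40.7% of Cluster 23 nuclei and in 16.8% after thinning, against 3.70% and 0.558% in PN Cluster 8.

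Wnt5b, on chromosome 6 from 119432531 to 119544347 (minus strand), was present in all 25 clusters at a mean of 20.97 CPM or more and was highest in progenitors. It overlaps Fbxl14 on the other strand. RGC Cluster 20 had 244 ± 115 CPM (SD, n = 9), from 34.4 CPM in E2-1 to 384 CPM in E2-4. Non-mitotic RGC Cluster 12 had 147 ± 39.7 CPM (SD, n = 11), RGC Cluster 2 had 125 ± 32.7 CPM and mitotic IPC Cluster 17 had 105 ± 27.7 CPM (SD, n = 11 each). None of these steps exceeded the spread between embryos. Within embryos, Cluster 20 was above Cluster 12 in 6 of 9. Cluster 12 was above Cluster 2 in 10 of 11, as was Cluster 2 above Cluster 17. In all, 46.7% of the 24162 Wnt5b UMIs came from RGC clusters other than Cluster 21. In Cluster 20 45.8% of nuclei had a Wnt5b UMI and 26.4% after thinning. Cluster 11 (Striatal Int) had the lowest thinned share at 3.05%, with 14.5% at full depth.

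Wnt7a and Wnt7b, a pair of closely related ligands known for their role in brain blood vessel formation, had their highest levels in different clusters, although both were high in Cluster 3, where Wnt7b was at 54.7 ± 20.3 CPM (SD, n = 11). Wnt7a, on chromosome 6 from 91363981 to 91411363 (minus strand), was highest in non-mitotic RGCs of Cluster 12 at 84.9 ± 16.5 CPM (SD, n = 11), with a lowest value of 67.1, a median of 81.7 and a highest of 125 CPM. It was next highest in migrating interneurons of Cluster 5 with 61.2 ± 9.42 CPM, RGC Cluster 2 with 60.2 ± 6.82 CPM and interneuron precursors of Cluster 3 with 60.1 ± 13.5 CPM. The step from Cluster 12 to Cluster 5 exceeded the spread and was found in 9 of 11 embryos, and Clusters 5, 2 and 3 did not differ beyond it. Interneurons supplied 36.3% of the 12051 Wnt7a UMIs and PN 9.81%. The lowest level was 2.42 CPM in early PN of Cluster 9. A Wnt7a UMI was found in 32.8% of Cluster 12 nuclei and in 14.5% after thinning, and in PN Cluster 1 in 2.02% and 0.414%.

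Wnt7b, on chromosome 15 from 85535437 to 85582473 (minus strand), came mostly from projection neurons. PN supplied 57.5% of its 15082 UMIs and interneurons 6.72%, where PN made up 31.7% and interneurons 27.2% of the nuclei. Cajal-Retzius Cluster 14 had 101 ± 38.6 CPM (SD, n = 11), rostral subcortical PN of Cluster 4 had 89.8 ± 22.8 CPM, early PN of Cluster 9 had 78.8 ± 20.7 CPM and callosal PN of Cluster 1 had 74.7 ± 17.02 CPM. None of the neighbours in the order of its 25 levels differed beyond their spread. It was at 22.1 ± 10.4 CPM in the other callosal PN cluster, Cluster 22 (SD, n = 11). Over the 25 clusters the levels of Wnt7a and Wnt7b were opposed (Pearson r = -0.61 across clusters, on log2(CPM + 1)), a description across clusters that share their libraries. In Cluster 14 48.2% of nuclei had a Wnt7b UMI and 15.3% after thinning, and in Cluster 11 5.48% and 0.820%.

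Wnt4, on chromosome 4 from 137277489 to 137299726 (plus strand), was the least counted but one of the 9 genes, with 943 UMIs. Its highest mean levels were 9.63 ± 5.62 CPM in Cajal-Retzius cells of Cluster 14 (SD, n = 11) and 8.71 ± 5.86 CPM in PN 3 of Cluster 25 (SD, n = 7), and none of its 24 pairs of neighbouring clusters differed beyond the spread. In Cluster 14 a Wnt4 UMI was found in 6.44% of nuclei and in 0.776% after thinning, and in Cluster 20 in 2.12% and 0.154%. At this depth the order of neighbouring clusters could not be read. Clusters further apart differed more, as the median of its mean levels over the 25 clusters was 1.79 CPM.

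**Figure D2:**
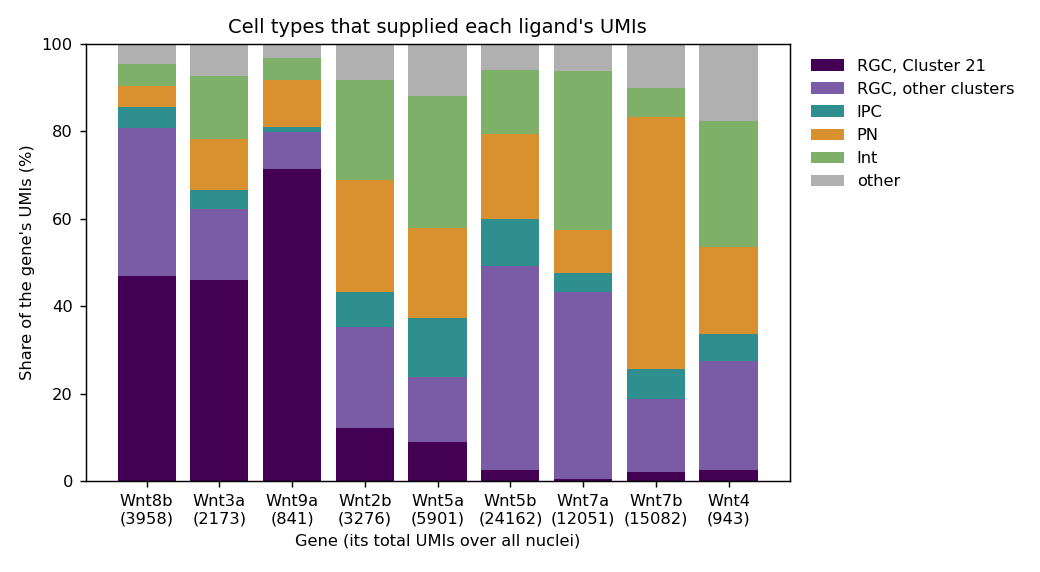
Share of the UMIs of each gene (bars, in %) that came from Cluster 21, the other RGC clusters, IPC, PN, interneurons (Int) and the remaining clusters. Cluster 21 supplied 71.5% of Wnt9a and 2.10% of Wnt7b, and PN supplied 57.5% of Wnt7b.

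The other 8 Wnt ligand genes in the tables were rarer. Wnt3 had 519 UMIs and was highest in RGC Cluster 20 at 24.4 ± 33.3 CPM (SD, n = 9), a mean smaller than its spread. Wnt1, Wnt2, Wnt6, Wnt9b, Wnt10a, Wnt11 and Wnt16 had between 5 and 138 UMIs each, and none reached 2 CPM in a cluster.

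The genes whose pattern over the 25 clusters was most like that of a ligand were sought among 11612 genes with at least 10 CPM in a cluster, by Pearson's r of log2(CPM + 1) over 25 clusters. For Wnt8b these were Axin2 (r = 0.96), Rnf43 (r = 0.96) and Rspo1 (r = 0.95). Axin2 and Rnf43 are feedback inhibitors that canonical Wnt signalling induces, and Rspo1 is an R-spondin. For Wnt2b they were 4932438H23Rik (r = 0.95), Ttr and Ccdc162 (r = 0.94 each), for Wnt3a Ttr (r = 0.89), Wdr93 and Ccdc162 (r = 0.88 each), and for Wnt9a Dnah6 (r = 0.93), Abhd3 and Npr3 (r = 0.92 each). Dnah6 encodes an axonemal dynein chain of motile cilia. All genes named for Wnt8b, Wnt2b, Wnt3a and Wnt9a were, like these ligands, highest in Cluster 21. A high r across clusters does not mean that the same nuclei hold both genes. In thinned nuclei of Cluster 21, Wnt2b was found in 2.63% of those with Ttr and 18.6% of those without. For Wnt3a these shares were 11.4% and 37.8%. For Wnt5b the genes were Fhod1, Mbd4 and Gypc (r = 0.93 each), for Wnt7a Entpd1, Cdk17 and Gm42695 (r = 0.79, 0.79 and 0.76), for Wnt5a Cald1, Wls and Usp32 (r = 0.73, 0.72 and 0.70) and for Wnt4 Fmn1, Napg and Lncpint (r = 0.78, 0.76 and 0.76). Wls encodes the carrier that brings lipid-modified Wnts to the cell surface. For Wnt7b the gene most alike was AU022754 (r = 0.94), which is annotated antisense within the same locus, followed by Sh3bgrl2 (r = 0.84) and Dpy19l1 (r = 0.79).

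The machinery around the ligands was partly shared with the hem. Wls had its highest level in Cluster 21 at 596 CPM, as did Rspo1, Rspo2 and Rspo3 at 335, 4059 and 1896 CPM. Znrf3 and Rnf43, the ligases that remove Frizzled receptors and that R-spondins inhibit, were highest there at 562 and 58.4 CPM. Among the 8 listed targets and feedback genes of beta-catenin, Axin2, Nkd1, Sp5 and Apcdd1 were highest in Cluster 21, at 232, 121, 9.57 and 177 CPM, and Lef1, Tcf7, Prickle1 and Ccnd1 in other clusters. Frizzled genes were mostly highest elsewhere, with Fzd6 the only 1 of the 10 that was highest in Cluster 21. The non-canonical receptor Ror1 was also highest there, at 408 CPM, as was Reck, listed with the co-receptors, at 101 CPM. So were Trabd2b and Gpc3, listed under Wnt acylation, secretion and release, at 53.0 and 133 CPM. Of the listed secreted Wnt antagonists, Dkk3 and Wif1 were highest there, at 186 and 17.4 CPM, and the others elsewhere.

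EtOH was compared with saline to ask which cell types change the expression of a ligand after prenatal alcohol exposure. Counts summed per embryo and cluster were tested with edgeR's quasi-likelihood test over all genes of a cluster, and a gene was called at a Benjamini-Hochberg adjusted p under 0.05 with a level more than 25% higher or 20% lower. Of 225 pairs of a ligand gene and a cluster, 96 passed the filter on low counts. A pair could pass through the group where the gene is high. The called pairs numbered 2 of 96, both higher in EtOH, and 0 were lower. Over all genes and the 25 clusters 0.792% of tests were called. DESeq2 called 6 of 96 pairs, all higher, where it called 2.64% of all tests with an adjusted p. With no gene filter edgeR called 14 of 222, 10 higher and 4 lower (Wnt5b in Cluster 12, Wnt7a in Cluster 8 and Wnt8b in Clusters 5 and 17), where 2.07% of all tests were called. Batch as a covariate and voom gave 3 of 96 each, all higher (0.419% and 2.24% of all tests), and library totals gave 1 of 96 (0.377%). Sums per dam gave 1 of 155 (0.693%) and thinning 1 of 36 (0.646%). At an unadjusted p under 0.05 there were 24 of 96 pairs, where 17.4% of all tests passed. In 4 of 96 pairs every EtOH embryo lay above every saline embryo, where 1.20% of all tests did so.

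The first called pair was Wnt7b in callosal PN of Cluster 1. Its level was 47.9, 51.3, 48.6, 72.6 and 83.8 CPM in the saline embryos S1-1, S1-2, S2-1, S2-2 and S2-4. In the EtOH embryos it was 82.2 and 85.2 CPM in E1-1 and E1-2 and 83.6, 88.9, 91.2 and 86.3 CPM in E2-1 to E2-4. S2-4 lay within the range of the EtOH embryos and the other 4 saline embryos below it. The log2 fold change was 0.46 ± 0.117 (SE, edgeR adjusted p = 0.0403), from a mean of 60.8 to 86.2 CPM, a fold of 1.38. Among the 4 ligand genes tested in Cluster 1 this was the 1 called, where 3.26% of all genes tested there were. Within batch 1 the means were 49.6 CPM in saline and 83.7 CPM in EtOH, and within batch 2 68.3 and 87.5 CPM.

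The direction was the same for Wnt7b in all 19 clusters where it was tested, with log2 fold changes between 0.13 and 1.18 and a median of 0.43, where the median of all tests was 0.01. The clusters share their embryos, so these are not 19 independent results. In the clusters where Wnt7b did not pass the filter the direction of the means was mixed. In rostral subcortical PN of Cluster 4 the level was 50.1 to 104 CPM in saline, with a median of 63.9, and 96.1 to 114 CPM in EtOH. The log2 fold change was 0.55 ± 0.137 there (edgeR adjusted p = 0.0650), 0.56 ± 0.148 in early PN of Cluster 9 (edgeR adjusted p = 0.0627) and 1.12 ± 0.265 in Cluster 21 (edgeR adjusted p = 0.0755), none of which were called. In Cluster 14, with the highest level, Wnt7b was at 57.7 to 120.0 CPM in saline and 79.2 to 187 CPM in EtOH (log2 fold change 0.43 ± 0.246, edgeR adjusted p = 0.480). In Cluster 14 the batches, which are also different dams, differed, with means of 62.0 and 152 CPM in batch 1 but 95.3 and 99.8 CPM in batch 2. The saline littermate S2-4 had the highest saline value in Clusters 1, 4, 9 and 21, and without it edgeR called 14 of 97 pairs, where 8.78% of all tests were called. Of these 12 were higher in EtOH, among them Wnt7b in Clusters 1, 4, 6, 8, 9, 10 and 21, and 2 were lower, Wnt5b in Cluster 3 and Wnt7a in Cluster 8. Wnt7b in Cluster 1 was not called by edgeR with counts summed per dam (log2 fold change 0.45, adjusted p = 0.164) or with library totals alone (0.50, adjusted p = 0.0677). Leaving out any other embryo it was not called either, with log2 fold changes of 0.39 or more.

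The second called pair was Wnt2b in the interneuron precursors of Cluster 3. It was at 5.76, 3.94, 6.48, 5.06 and 7.29 CPM in the saline embryos and at 10.0, 18.2, 10.9, 15.3, 18.3 and 13.2 CPM in the EtOH embryos, without overlap. These levels rest on 9 to 48 UMIs per saline embryo and 7 to 42 per EtOH embryo. The log2 fold change was 1.21 ± 0.223 (SE, edgeR adjusted p = 0.0297), a fold of 2.32. Of 5 ligand genes tested in Cluster 3 this was the 1 called, where 1.85% of all genes tested there were. The batch means were 4.85 and 14.1 CPM in batch 1 and 6.28 and 14.4 CPM in batch 2. Wnt2b was higher in EtOH in all 11 clusters where it was tested, with log2 fold changes from 0.09 to 1.21, and the other 10 were not called. These clusters share their embryos. In the clusters where Wnt2b did not pass the filter the direction of the means was mixed. With 1 embryo left out, Wnt2b in Cluster 3 was called in 4 of 11 fits, those without S2-1, S2-2, S2-4 or E1-1, and its log2 fold change stayed between 1.11 and 1.29. It was called with counts summed per dam (1.18, edgeR adjusted p = 0.0257), and after thinning it did not pass the filter and was not tested.

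**Figure D3:**
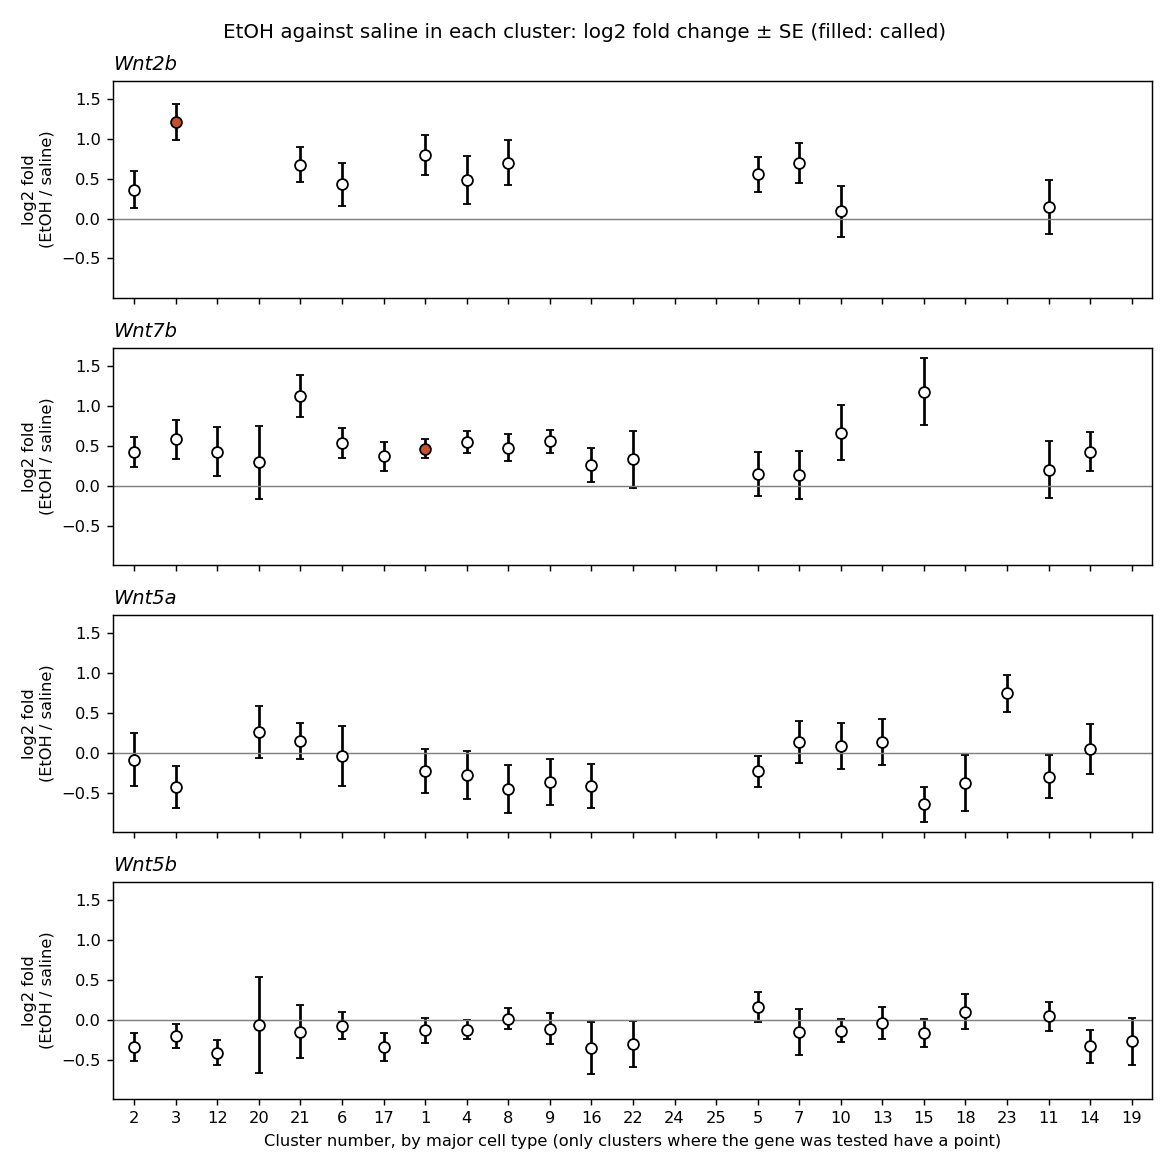
Log2 fold change (EtOH over saline) ± SE of Wnt2b, Wnt7b, Wnt5a and Wnt5b in each cluster where the gene was tested, with called pairs filled. All points of Wnt2b and Wnt7b lie above 0, with Wnt2b in Cluster 3 and Wnt7b in Cluster 1 called, and those of Wnt5b lie between -0.41 and 0.16.

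In the cortical hem RGCs of Cluster 21, 7 ligand genes were tested and 0 were called by edgeR, while 1 of the 6390 genes tested there (0.0156%) was called. At an unadjusted p under 0.05 there were 4 of 7, Wnt2b, Wnt3a, Wnt7b and Wnt9a, all higher in EtOH, beside 792 of all 6390 genes. The mean of Wnt3a was 136 ± 22.8 CPM in saline and 230.1 ± 30.9 CPM in EtOH (SD, n = 5 each), a log2 fold change of 0.75 ± 0.145 that missed the threshold (edgeR adjusted p = 0.0526). It was called by DESeq2 (adjusted p = 0.00353), by limma voom with a random effect of the dam (adjusted p = 0.0256) and by edgeR with batch as a covariate (adjusted p = 0.0470). It was not called by edgeR with counts summed per dam (log2 fold change 0.66, adjusted p = 0.243) or after thinning (0.78, adjusted p = 0.105). Wnt9a had a log2 fold change of 0.52 ± 0.186 (edgeR adjusted p = 0.236), Wnt2b of 0.68 ± 0.216 (edgeR adjusted p = 0.172) and Wnt8b of 0.28 ± 0.148 (edgeR adjusted p = 0.453). Wnt5a and Wnt5b had 0.15 ± 0.220 and -0.15 ± 0.332. For Wnt3a, Wnt7b and Wnt9a every EtOH embryo lay above every saline embryo, where 1.55% of the genes tested in Cluster 21 did so. DESeq2 called Wnt7b there as well, 2 of the 7 genes, where it called 1.99% of all genes in Cluster 21, voom 0.814% and edgeR with batch 0.282%. Without E1-2 edgeR called Wnt3a (log2 fold change 0.82, with 0.283% of all genes called), and without S2-4 it called Wnt3a and Wnt7b (2.66% of all genes called, log2 fold change of Wnt3a 0.77).

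The mixture of nuclei in Cluster 21 varied between the same embryos. The ranges of the marker sums and of the share of nuclei below overlap between the groups, and no test of the mixture was run. Summed over the 6 choroid plexus markers the level ranged from 2593 to 8739 CPM in saline and from 956 to 4231 CPM in EtOH, and none of the 6 was at 0. Summed over the 7 hem markers it ranged from 5914 to 7632 CPM in saline and from 7042 to 8846 CPM in EtOH. Nuclei with neither Htr2c nor Ttr after thinning made up 49.8% to 66.7% of Cluster 21 in saline and 64.9% to 81.8% in EtOH embryos. Within those nuclei Wnt3a was at 165, 189, 174, 255 and 238 CPM in the saline embryos and at 301, 193, 256, 358 and 324 CPM in the EtOH embryos, so that E1-2 lay within the saline range. The group means were 204 ± 39.9 and 287 ± 64.2 CPM (SD, n = 5 each). Wnt9a was at 73.5 to 157 CPM in saline and 109.6 to 166 CPM in EtOH in those nuclei, and the groups overlapped. Wnt7b was at 25.6 to 88.7 CPM in saline and 79.7 to 154 CPM in EtOH and overlapped as well, with means of 59.1 ± 23.7 and 111 ± 35.03 CPM (SD, n = 5 each). The means of Wnt2b there were 78.6 ± 23.8 CPM in saline and 121 ± 26.1 CPM in EtOH, and those of Wnt9a 117 ± 37.2 and 143 ± 21.1 CPM. In the nuclei with Htr2c or Ttr Wnt3a was at 14.1 to 89.0 CPM in saline, with a mean of 47.9 ± 29.8 CPM (SD, n = 5). It was at 124 and 121 CPM (6 and 14 UMIs) in E1-1 and E2-4, without overlap. These were the 2 EtOH embryos with at least 10 such nuclei. Wnt2b was at 14.1 to 31.3 CPM there in saline and had 0 UMIs in E1-1 and E2-4, which allows up to 61.9 and 25.8 CPM (3 UMIs per embryo). The part of the choroid plexus nuclei in the differences of the whole cluster was not tested.

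**Figure D4:**
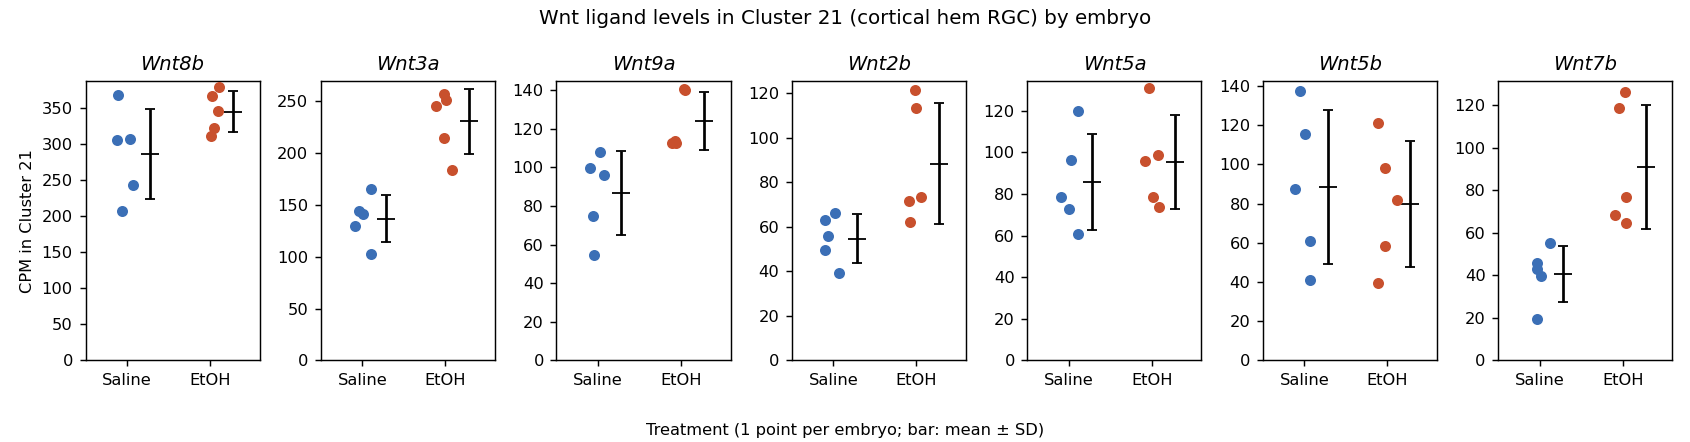
Level in CPM of 7 ligand genes in Cluster 21, with 1 point per embryo and the mean ± SD of each group (5 saline and 5 EtOH embryos). The EtOH points of Wnt3a (183 to 257 CPM) lie above all saline points (103 to 165 CPM), those of Wnt9a and Wnt7b also lie above, and the other 4 genes overlap.

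In the clusters where the remaining ligands were highest, no difference was called. Wnt5a in Cluster 23 was at a mean of 92.8 ± 23.1 CPM in saline and 152 ± 44.4 CPM in EtOH (SD, n = 5 each), with a log2 fold change of 0.75 ± 0.231 (edgeR adjusted p = 0.185). Over its 19 tested clusters Wnt5a was higher in 7 and lower in 12. Wnt5b in Cluster 20 was at 239 ± 76.7 CPM in saline (SD, n = 5) and 251 ± 165 CPM in EtOH (SD, n = 4), with a log2 fold change of -0.06 ± 0.599 (edgeR adjusted p = 1.00) whose sign differs from that of the means. The log2 fold change was 0.37 without E2-1, which was at 34.4 CPM, and its sign also differed between tools. Over its 22 tested clusters Wnt5b was lower in EtOH in 18, with a median log2 fold change of -0.14 and the lowest value, -0.41 ± 0.160, in Cluster 12 (edgeR adjusted p = 0.182). Wnt7a in Cluster 12 was at 82.9 ± 12.4 and 86.6 ± 20.4 CPM (SD, n = 5 and 6), with a log2 fold change of 0.01 ± 0.142 (edgeR adjusted p = 0.985). Over its 15 tested clusters Wnt7a was higher in 9 and lower in 6, from -0.65 ± 0.240 in Cluster 8 (edgeR adjusted p = 0.125) to 0.33 in Cluster 18. Wnt8b was lower in EtOH in the 4 other clusters where it was tested, by values from -0.46 ± 0.380 in Cluster 2 to -1.14 ± 0.556 in Cluster 6, and none was called. In Cluster 2 the saline embryo S2-2 was at 46.9 CPM and the other 4 at 14.0 to 23.04 CPM, and without S2-2 the log2 fold change was -0.0799. Without S2-2 it was -0.70 in Cluster 6, and in Cluster 20 it was -0.03 without S2-4 and 0.11 without E2-1. Wnt3a had log2 fold changes of 1.07 ± 0.355 in Cluster 2 (edgeR adjusted p = 0.0925) and 1.251 ± 0.444 in Cluster 11 (edgeR adjusted p = 0.142), with means of 3.01 and 7.07 CPM and of 2.77 and 6.80 CPM in saline and EtOH. Wnt4 passed the filter in Cluster 7, where its means were 3.19 CPM in saline and 5.14 CPM in EtOH (log2 fold change 0.68 ± 0.275, edgeR adjusted p = 0.217). Wnt4 in Cluster 14 did not pass it and was at 3.18 to 7.18 CPM in saline and 3.85 to 22.3 CPM in EtOH.

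Summed over all nuclei of an embryo, 2 of the 9 ligands were called, both higher in EtOH, where 12.1% of all genes tested were called. A level over all nuclei mixes how many nuclei of each type a library held with how much RNA each of them held. Wnt7b was at 25.1, 23.1, 21.6, 39.5 and 42.4 CPM in the saline embryos and at 48.4, 52.9, 43.4, 38.9, 47.5 and 41.3 CPM in the EtOH embryos, with S2-2 and S2-4 within the EtOH range. The log2 fold change was 0.52 ± 0.158 (edgeR adjusted p = 0.0386). The means were 24.1 and 50.6 CPM in batch 1 and 34.5 and 42.8 CPM in batch 2. Wnt4 was at 1.32, 1.83, 1.86, 2.14 and 2.45 CPM in the saline embryos and at 2.70, 2.46, 2.46, 2.84, 2.56 and 3.09 CPM in the EtOH embryos. Every EtOH embryo lay above every saline embryo, although S2-4 at 2.448 CPM and E1-2 and E2-1 at 2.458 CPM were nearly equal. The log2 fold change was 0.43 ± 0.133 (edgeR adjusted p = 0.0388), on 38 to 132 UMIs per embryo. The batch means of Wnt4 were 1.58 and 2.58 CPM in batch 1 and 2.15 and 2.74 CPM in batch 2. With 1 embryo left out, Wnt4 was called in 1 of 11 fits (without S2-4, log2 fold change 0.51) and Wnt7b in 2 of 11 (without S2-2 or S2-4, 0.62 and 0.65), where 1462 of 17967 genes were called without S2-2 and 4129 of 17934 without S2-4.

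For Wnt8b and Wnt9a over all nuclei the libraries with the most and the fewest hem nuclei had the highest and the lowest level. For Wnt2b and Wnt3a E2-1 was not the lowest, and for Wnt2b S2-2 was not the highest. S2-2, with 4.64% hem nuclei, had 29.6 CPM of Wnt8b and 6.36 CPM of Wnt9a, where the other saline embryos had 5.73 to 9.47 and 1.15 to 2.17 CPM. Among those other saline embryos the order differed, since S2-1 had the lowest share of hem nuclei (0.748%) and the highest Wnt8b (9.47 CPM). E2-1, with 0.0789% hem nuclei, had the lowest values, 1.02 CPM of Wnt8b and 0.511 CPM of Wnt9a. The log2 fold changes were -0.86 ± 0.537 for Wnt8b (edgeR adjusted p = 0.259), -0.61 ± 0.521 for Wnt9a (edgeR adjusted p = 0.412) and 0.24 ± 0.390 for Wnt3a (edgeR adjusted p = 0.680), none called. These values depended on S2-2, without which they were -0.22 for Wnt8b, 0.10 for Wnt9a and 0.75 for Wnt3a, again not called. Without the nuclei of Cluster 21 Wnt2b was called together with Wnt4 and Wnt7b, 3 of 9 where 12.5% of all genes were. Wnt2b was then at 4.69, 4.49, 5.21, 6.88 and 7.90 CPM in saline and at 8.37, 8.07, 7.70, 8.58, 9.04 and 9.29 CPM in EtOH embryos (log2 fold change 0.48 ± 0.118, edgeR adjusted p = 0.0193), with S2-4 within the EtOH range. Wnt8b outside Cluster 21 was still highest in S2-2, at 14.3 CPM, and lowest in E2-1, at 0.958 CPM. Wnt5a, Wnt5b and Wnt7a had log2 fold changes over all nuclei of -0.23 ± 0.157, -0.36 ± 0.151 and -0.16 ± 0.056, and none was called. Their edgeR adjusted p-values were 0.302, 0.105 and 0.0532. Without Cluster 21 Wnt7a was at -0.17 ± 0.058 (edgeR adjusted p = 0.0475). It was not called there because its fold of 0.886 did not reach the threshold.

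**Figure D5:**
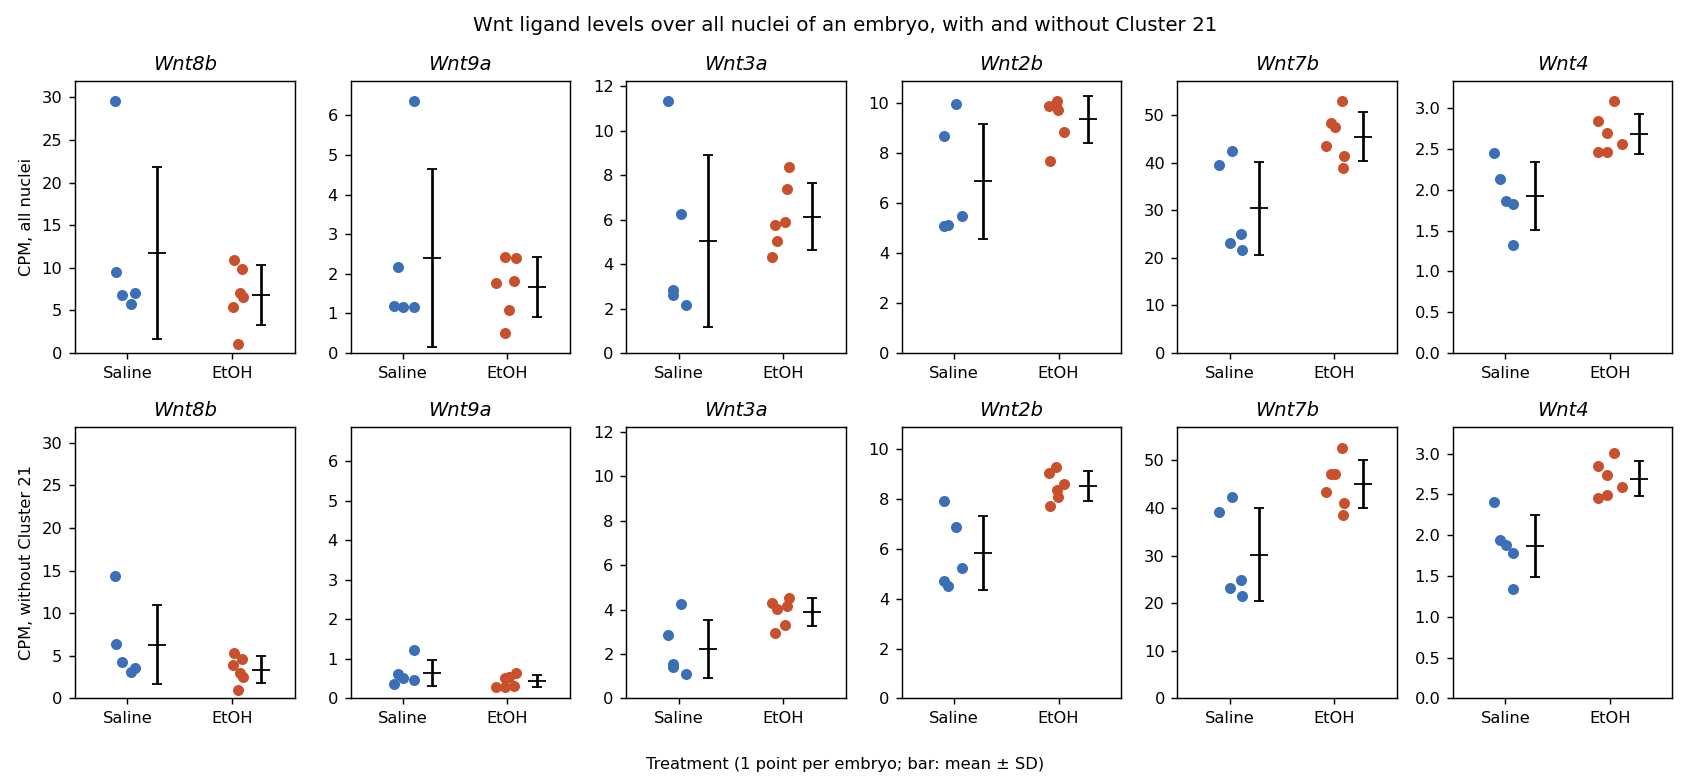
Level in CPM of 6 ligand genes over all nuclei of an embryo (top row) and without the nuclei of Cluster 21 (bottom row), with 1 point per embryo and the mean ± SD of each group. The saline embryo S2-2 stands apart for Wnt8b (29.6 CPM) and Wnt9a (6.36 CPM) in the top row, while the EtOH points of Wnt4 lie above all saline points in both rows.

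The genes that act with the ligands were counted by list in the same fits, beside a median log2 fold change of 0.01 and 0.792% called over all tests. Of 7 genes of Wnt acylation, secretion and release, 6 pairs of a gene and a cluster among 112 tested were called, all lower in EtOH, and the median was -0.25. These were the glypicans, cell surface proteoglycans that carry Wnts between cells. Gpc6 was lower in Clusters 3, 5 and 16, Gpc3 in Clusters 1 and 5 and Gpc4 in Cluster 11. These clusters share their embryos, so the calls are not independent results. In Cluster 5 Gpc6 had a median of 1580 CPM in saline (1270.1 to 1820.1 CPM) and 1151 CPM in EtOH (1090.1 to 1247 CPM), without overlap (log2 fold change -0.50 ± 0.0913, edgeR adjusted p = 0.0281). In Cluster 1 Gpc3 had 7.95 CPM (4.38 to 19.7 CPM) in saline and 2.33 CPM (1.31 to 4.00 CPM) in EtOH, again without overlap (log2 fold change -1.99 ± 0.405, edgeR adjusted p = 0.0256).

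Of 17 Frizzled and co-receptor genes 1 of 184 pairs was called, a share near that of all tests. This was Fzd3 in PN Cluster 8, a receptor known for axon guidance. It was at 138 to 176 CPM in saline and 98.9 to 140.4 CPM in EtOH embryos, with overlap (log2 fold change -0.35 ± 0.0845, edgeR adjusted p = 0.0423). Of 10 secreted antagonists 2 of 55 pairs were called, both lower in EtOH, Dkk2 in Cluster 4 (-2.38 ± 0.472, edgeR adjusted p = 0.0495) and Sfrp1 in Cluster 8 (-0.69 ± 0.161, edgeR adjusted p = 0.0423). Dkk2 binds the Lrp co-receptors and Sfrp1 binds Wnts. Dkk2 was at 3.16 to 14.5 CPM in saline and 0.695 to 3.62 CPM in EtOH, and Sfrp1 at 19.4 to 35.3 and 13.4 to 21.3 CPM, so both overlapped. Of the R-spondins and Lgr receptors 0 of 89 pairs and of the beta-catenin targets and feedback genes 0 of 113 pairs were called by edgeR. Median log2 fold changes over the tested pairs were -0.105 for Frizzled and co-receptor genes and -0.106 for secreted antagonists. They were -0.177 for R-spondins and Lgr receptors and 0.097 for beta-catenin targets and feedback genes. In Cluster 21 the feedback gene Axin2 was at 136 to 226 CPM in saline and 231 to 333 CPM in EtOH embryos, without overlap and not called (log2 fold change 0.58 ± 0.148, edgeR adjusted p = 0.0838).

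Over all nuclei of an embryo, Gpc3 and Dkk2 were called among the 48 listed genes tested, both lower in EtOH. This share of 4.17% lay below the 12.1% of all genes. Gpc3 was at 25.5 to 52.3 CPM in saline and 17.5 to 26.7 CPM in EtOH (log2 fold change -0.68 ± 0.160, edgeR adjusted p = 0.0206), and Dkk2 at 6.51 to 9.79 and 5.17 to 7.95 CPM (-0.53 ± 0.149, edgeR adjusted p = 0.0288). Both groups overlapped for each gene. Without the nuclei of Cluster 21, 4 of the 47 listed genes tested were called, or 8.51%, where 12.5% of all genes were. Gpc6 (-0.32 ± 0.0693, edgeR adjusted p = 0.0149) and Rspo2 (-1.30 ± 0.422, edgeR adjusted p = 0.0480) were called lower as well. Rspo2 was then at 10.7 to 52.5 CPM in saline and 4.82 to 13.5 CPM in EtOH, with overlap. Its saline median was 14.3 CPM and its saline mean 21.8 ± 17.7 CPM (SD, n = 5). The EtOH median was 8.96 CPM. Leaving out 1 embryo was not tried for this set of nuclei.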

How the data were processed

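Nuclei of mouse cortex were sequenced with 10x Genomics 3′ chemistry. The authors deposited, for each embryo and cluster, a table of whole UMI counts per gene and nucleus, made with Cell Ranger on mm10 per the labels and the study's methods, after their own filters and clustering. The counting strand is not given in the sources used here. Counts were summed per embryo and cluster (275 tables, at least 10 nuclei). EtOH was compared with saline by edgeR 4.0.16 (TMM, filterByExpr, robust quasi-likelihood F test) in R 4.3.3, with Benjamini-Hochberg adjustment over all genes of a cluster and at least 2 embryos per group. No doublet caller was run. Alternatives were library totals, DESeq2 1.42.0, no gene filter, batch, sums per dam, limma 3.58.1 voom, thinning to 2000 UMIs, at least 20 nuclei and leaving out each embryo. The fit was tested on simulated data. All 9 ligands are named. Also named are the 3 genes most like each ligand, and genes of the pathway lists that were called or were highest in a ligand's top cluster. The ligands and lists were chosen with earlier results of these data known. Littermates differed by more than counting noise, so no library was counted as a copy of another.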

Additional observations from a re-analysis of the deposited data

Results flagged for a closer look

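In 3 of 36 groups of embryos 1 value stood far from the others, by its gap to the nearest value over the range, where chance gives about 1 in 20. All 3 were saline embryos. S2-2 had 29.6 CPM of Wnt8b over all nuclei where the other 4 saline embryos had 5.73 to 9.47 CPM, and 6.36 CPM of Wnt9a where the others had 1.15 to 2.17 CPM. This library held 206 nuclei of the cortical hem cluster. In Cajal-Retzius Cluster 14, S2-1 had 3.18 CPM of Wnt4 on 7 UMIs where the others had 6.91 to 7.18 CPM.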

How the results depend on the processing

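The number of ligand and cluster pairs called was 2 of 96 tested, and became 1 of 96 with library totals alone and 1 of 155 with counts summed per dam (Wnt7b in Cluster 1 lost), 1 of 36 with thinned nuclei (Wnt2b in Cluster 3 not tested), 3 of 96 with batch or with voom, 6 of 96 with DESeq2 and 14 of 222 with no gene filter. It was 0 to 14 when 1 embryo was left out, and the 14 came without S2-4. Over all nuclei, Wnt4 was not called with library totals (log2 fold change 0.49), no filter (0.42), sums per dam (0.45) or thinned nuclei (0.43), nor Wnt7b with library totals (0.58), no filter (0.51) or sums per dam (0.58). Wnt2b was called without Cluster 21 (0.48). Wnt3a in Cluster 21 was called by DESeq2 (0.74), without the gene filter (0.63), with batch as a covariate (0.75) and by voom (0.75). Wnt5b in Cluster 20 changed sign with DESeq2 (0.0324), batch (0.0386) and thinning (0.36), and Wnt7a in Cluster 12 without the filter (-0.0577) and per dam (-0.0399). The causes were not tested.

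Leaving out 1 embryo gave log2 fold changes over all nuclei of 0.32 to 0.54 for Wnt2b, 0.34 to 0.51 for Wnt4, 0.43 to 0.65 for Wnt7b, -1.06 to -0.22 for Wnt8b, 0.05 to 0.75 for Wnt3a and -0.78 to 0.10 for Wnt9a, with the last 3 highest without S2-2. In the top clusters they were 0.67 to 0.82 for Wnt3a, -0.39 to 0.37 for Wnt5b and -0.11 to 0.083 for Wnt7a. In Cluster 21 nuclei without Htr2c or Ttr after thinning, a set chosen after seeing the data, levels were 99.8 CPM for Wnt2b, 245 CPM for Wnt3a and 430.1 CPM for Wnt8b. In the whole of Cluster 21 thinning gave 381 CPM for Wnt8b and 145 CPM for Wnt9a. Of 529 values under an alternative, 431 kept their direction and side of the threshold or stayed within the spread.

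No paired analysis was possible because the sample numbers in the labels run within a litter and no dam was shared between treatments. With 2 dams per treatment the dam and the embryo cannot be fully told apart. Wnt4 and Wnt9a had the fewest UMIs of the 9 ligands, 943 and 841, and each passed the filter in 1 cluster. Thinning lowered the shares of nuclei with a UMI given for the 9 ligands.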
